A study of Mus musculus with 12 samples.

Results

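The genes described here are those whose symbols are made of Mrpl or Mrps followed by a digit, the nuclear genes for proteins of the mitochondrial ribosome. The rule found 76 of the 23420 genes listed in the count tables, 47 with an Mrpl symbol and 29 with an Mrps symbol. Messenger RNA was sequenced in 12 libraries of mouse spleen cells in 4 groups of 3: stimulated Otub1 knockout, stimulated wild type, fresh knockout and fresh wild type. All mice were C57BL/6, aged 6 to 8 weeks, and carried the OT-I transgene, a T cell receptor for an ovalbumin peptide. The knockout was OTUB1-CD4Cre, in which CD4-driven Cre removes Otub1, the gene of a deubiquitinase, during T cell development while other cell types keep it; the sample tags write it as OTUB1-DKO. Stimulated cells had been cultured for 24 h on plate-bound anti-CD3 with anti-CD28, at 1 µg/ml of each antibody, which mimics antigen and costimulation. The fresh groups carry the source label "untreated", so antibody and culture form a single factor here.

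Mitochondria translate the few proteins encoded by their own DNA, all subunits of the respiratory chain and ATP synthase, on a ribosome of their own. Its RNAs come from mitochondrial DNA, while its proteins are encoded in the nucleus, made in the cytosol and imported. Some have counterparts in the bacterial ribosome and others exist only in mitochondria. Naive T cells are quiescent, and their activation is known to include growth in cell size and the build-up of mitochondria and of the machinery for protein synthesis.

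Libraries held 15064488 to 25920035 gene counts, and the lowest count of any of the 76 genes in any library was 114. Otub1 had 16.2, 13.8 and 14.5 counts per 1000000 counts of the library (CPM) in stimulated knockout libraries and 85.7, 100.1 and 96.1 CPM in stimulated wild type. It had 25.4, 28.8 and 28.6 CPM in fresh knockout libraries, against 72.6, 70.8 and 45.1 CPM in fresh wild type, so knockout and wild type did not overlap in either state. The design text names naive CD8 T cells, but a sample tag names dendritic cells. The 5 CD8 T cell markers summed to 1374 to 1541 CPM in stimulated knockout, 1679 to 1793 CPM in stimulated wild type, 4581 to 4762 CPM in fresh knockout and 4413 to 4636 CPM in fresh wild-type libraries. The 11 dendritic cell markers summed to 116 to 121, 102 to 122, 1142 to 1699 and 1420 to 1742 CPM in the same order of groups. The largest parts of this sum in fresh knockout and fresh wild type were Cd74 (565 and 660 CPM) and H2-Aa (246 and 291 CPM). H2-Eb1 (236 and 271 CPM) and H2-Ab1 (219 and 250 CPM) followed, and then Itgax (38.2 and 36.2 CPM). The share of dendritic cells was not estimated. After stimulation 9 of the 11 fell in each genotype. Batf3 rose (log2 fold change 3.61 in knockout and 2.67 in wild type), as did Zbtb46 in knockout (1.15). In stimulated cells Batf3 and Zbtb46 were also higher in knockout than in wild type (0.95 and 0.76), and the other 9 were not called. Of the 5 CD8 T cell markers, 3 were lower in stimulated knockout than in stimulated wild type: Cd3d (-0.40), Cd8a (-0.31) and Cd3e (-0.31). Cd8b1 and Lck were not called there, and in fresh cells 0 of the 5 were called. The stimulation effects of Cd3d and Cd3e also differed between genotypes (-0.35 and -0.27). The 5 B cell markers summed to 19.1 to 27.3 CPM over the stimulated and 106 to 161 CPM over the fresh libraries, and the 6 myeloid markers to 0.337 to 1.12 CPM and 30.5 to 57.5 CPM. The 4 NK cell markers summed to 0.209 to 0.748 CPM over the stimulated and 8.33 to 17.4 CPM over the fresh libraries, the 3 CD4 T cell markers to 3.70 to 6.89 CPM and 19.3 to 30.0 CPM, and the erythroid markers to at most 1.53 CPM in any library. Foxp3, of the CD4 T cell list, rose after stimulation (log2 fold change 0.87 in knockout and 0.75 in wild type), while Cd4 and Cd40lg fell. Klra8, of the NK cell list, and the globin genes Hba-a1 and Hba-a2 were at 0 in all 12 libraries. These markers moved with every stimulation result below, and some also with the knockout comparison of stimulated cells. Their part in those results was not tested. In bulk RNA, fewer cells of a type and less RNA per cell cannot be told apart.

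After stimulation, nearly the whole set was higher in both genotypes. In knockout cells 74 of the 76 genes rose, 1 fell (Mrpl24) and 1 was not called (Mrpl9); in wild-type cells 74 rose, 0 fell and Mrpl24 and Mrpl9 were not called. The same 74 genes rose in both. The median log2 fold change of the set, stimulated over fresh, was 0.97 in knockout and 0.97 in wild type (a 1.96-fold and a 1.95-fold difference), against medians of -0.022 and -0.027 over all genes tested. Scaling between libraries holds the bulk of genes near no change. Here and below, rises and falls are therefore relative to the other genes of a library, and RNA per cell was not measured. Calls rest on edgeR's quasi-likelihood test, with p-values adjusted by the Benjamini-Hochberg method over the 12759 genes that passed a filter on low counts and a threshold of 0.05; all 76 genes passed the filter. With upper-quartile scaling, which put the median of all genes at -0.14 in knockout and -0.15 in wild type, 71 and 74 members rose and 1 fell in each. Of all genes tested, 41.7% were called higher and 42.2% lower in knockout cells, and 40.8% higher and 41.4% lower in wild-type cells. At an unadjusted p under 0.05 the count of lower members in wild type was also 0 with edgeR and with DESeq2, and 1 with limma-voom (Mrpl24). Of all 12759 genes tested, edgeR gave 5339 lower in wild type at that threshold.

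Summed over the 76 genes, the level was 3780, 3607 and 3968 CPM in stimulated knockout libraries and 3640, 3816 and 3803 CPM in stimulated wild type, against 1941, 1901 and 1998 CPM in fresh knockout and 1901, 1942 and 1947 CPM in fresh wild type. Every stimulated library lay above every fresh library, and within each state the genotypes overlapped. The 3 stimulated and 3 fresh libraries did not overlap, with the stimulated ones higher, for 73 members in knockout and for 74 in wild-type cells; this held for 42.0% and 41.8% of all genes tested. Genes with an Mrpl symbol and genes with an Mrps symbol, which do not match the subunits exactly, moved by similar amounts. Genes with an Mrpl symbol summed to 2470 ± 123 CPM in stimulated knockout, 2442 ± 52.8 CPM in stimulated wild type, 1249 ± 33.3 CPM in fresh knockout and 1239 ± 12.8 CPM in fresh wild type (SD, n = 3), and genes with an Mrps symbol to 1315 ± 57.6, 1311 ± 45.7, 697 ± 15.5 and 691 ± 14.7 CPM in the same groups.

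**Figure D1:**
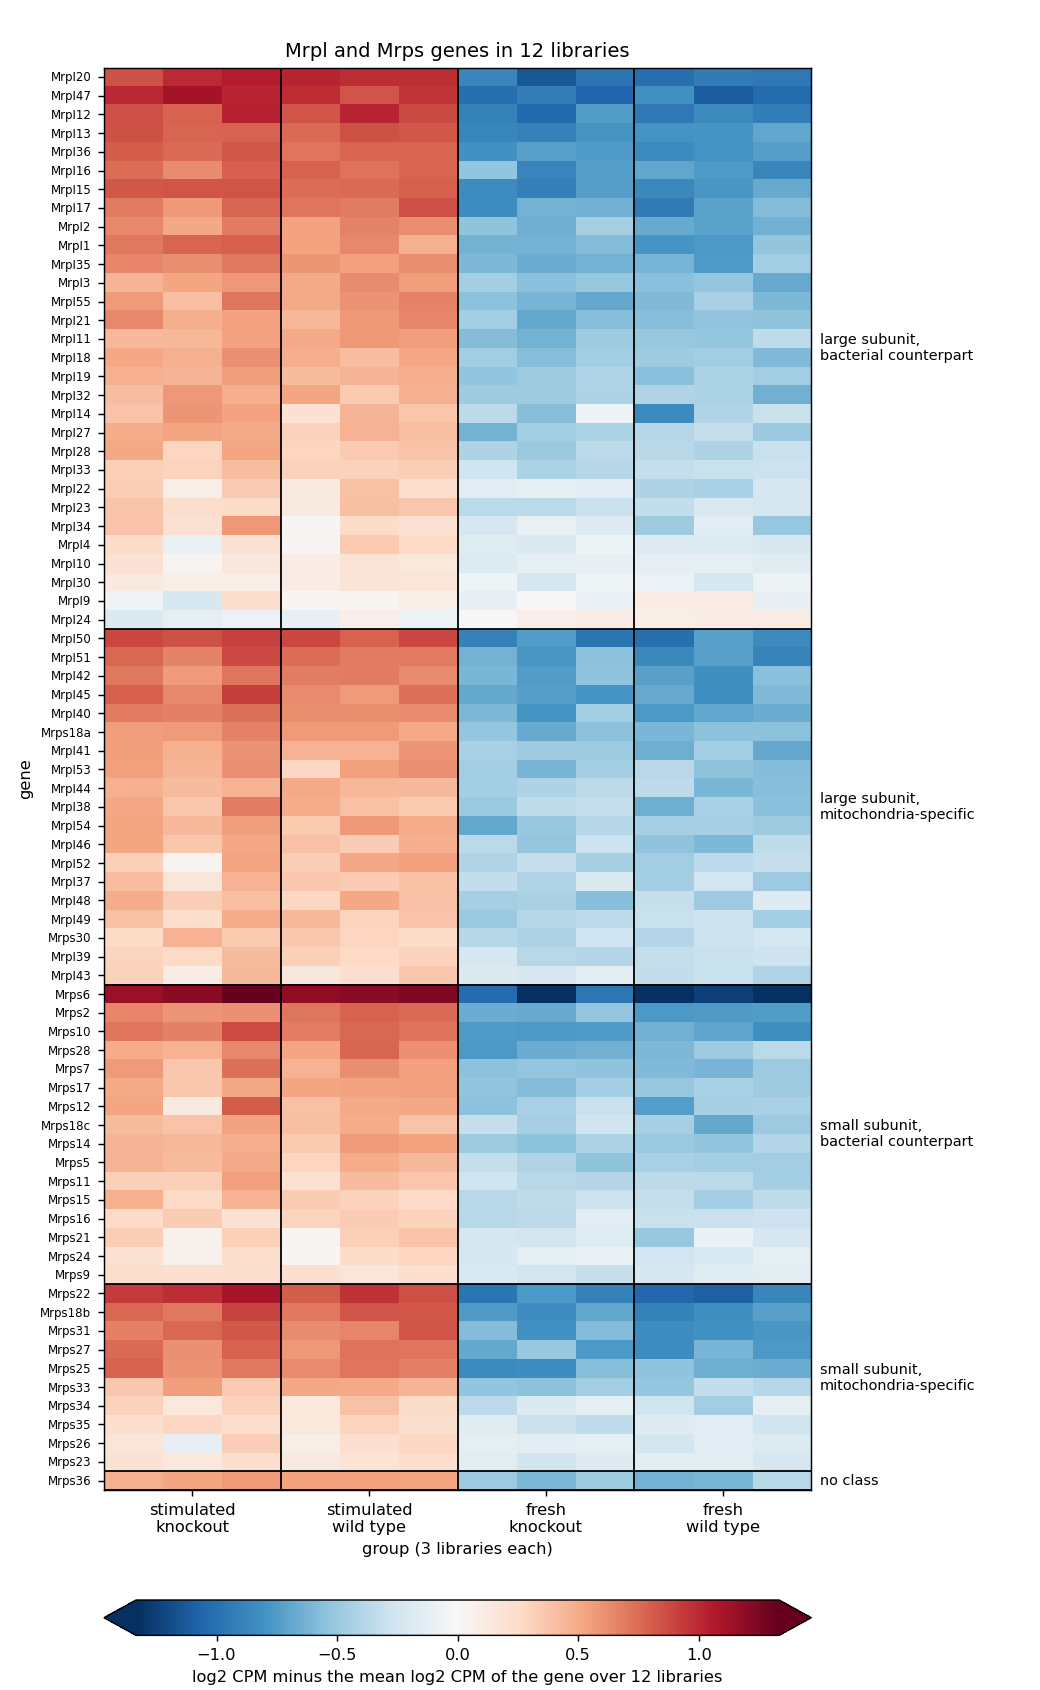
Heat map of the 76 genes (rows, grouped by subunit and origin and ordered by the wild-type effect) in the 12 libraries (columns, 3 per group). Colour gives log2 CPM minus the gene's mean over the 12 libraries; the stimulated columns are red and the fresh columns blue for nearly every row, and Mrpl24 and Mrpl9 are the pale rows at the foot of the first block.

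The size of the difference was not uniform, and promoter sequences are shown for 6 genes that span it. Mrps6, Mrps22, Mrpl20 and Mrpl36 were among the genes that rose most in both genotypes, while Mrpl9 was called in neither and Mrpl24 was the lowest member in both. Each sequence runs 5′ to 3′ along the gene from 250 bases before to 50 bases after its start, from RefSeq on GRCm38.p6: chr16:92058086-92058385 (plus strand) for Mrps6, chr9:98601630-98601929 (minus strand) for Mrps22, chr4:155802628-155802927 (plus strand) for Mrpl20, chr13:73330759-73331058 (plus strand) for Mrpl36, chr3:94443086-94443385 (plus strand) for Mrpl9 and chr3:87919294-87919593 (plus strand) for Mrpl24. Capitals mark every match, on either strand, to 4 motifs: CCGGAAG (ETS factors), CGCATGCG (the core of the NRF1 motif), CACGTG (the E-box) and AAGATGGCG (YY1).
Mrps6: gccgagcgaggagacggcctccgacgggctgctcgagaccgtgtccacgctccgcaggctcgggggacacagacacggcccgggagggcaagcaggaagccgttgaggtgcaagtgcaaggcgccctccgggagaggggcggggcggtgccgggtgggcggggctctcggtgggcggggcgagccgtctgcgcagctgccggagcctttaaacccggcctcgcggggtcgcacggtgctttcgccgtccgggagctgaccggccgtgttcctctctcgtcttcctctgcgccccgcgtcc
Mrps22: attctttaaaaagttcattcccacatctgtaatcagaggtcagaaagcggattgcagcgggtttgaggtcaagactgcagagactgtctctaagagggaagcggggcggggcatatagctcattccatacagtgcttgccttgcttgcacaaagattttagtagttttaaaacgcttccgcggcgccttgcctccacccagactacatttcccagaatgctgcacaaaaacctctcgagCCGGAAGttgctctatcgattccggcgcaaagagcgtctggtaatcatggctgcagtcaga
Mrpl20: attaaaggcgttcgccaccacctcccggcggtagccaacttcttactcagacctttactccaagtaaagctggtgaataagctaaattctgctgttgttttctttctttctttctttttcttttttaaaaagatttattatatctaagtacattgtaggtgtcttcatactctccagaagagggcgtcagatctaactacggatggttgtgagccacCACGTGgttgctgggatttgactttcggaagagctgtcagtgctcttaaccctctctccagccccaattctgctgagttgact
Mrpl36: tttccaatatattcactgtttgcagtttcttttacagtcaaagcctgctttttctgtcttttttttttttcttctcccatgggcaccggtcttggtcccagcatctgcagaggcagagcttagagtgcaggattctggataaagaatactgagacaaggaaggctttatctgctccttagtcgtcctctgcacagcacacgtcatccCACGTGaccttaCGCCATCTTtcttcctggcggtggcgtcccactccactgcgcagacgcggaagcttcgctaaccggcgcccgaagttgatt
Mrpl9: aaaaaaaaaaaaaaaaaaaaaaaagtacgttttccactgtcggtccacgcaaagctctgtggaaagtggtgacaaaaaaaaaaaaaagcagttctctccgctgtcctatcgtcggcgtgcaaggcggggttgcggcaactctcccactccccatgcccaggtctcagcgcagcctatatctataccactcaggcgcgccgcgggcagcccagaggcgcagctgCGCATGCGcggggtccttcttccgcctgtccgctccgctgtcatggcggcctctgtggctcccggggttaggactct
Mrpl24: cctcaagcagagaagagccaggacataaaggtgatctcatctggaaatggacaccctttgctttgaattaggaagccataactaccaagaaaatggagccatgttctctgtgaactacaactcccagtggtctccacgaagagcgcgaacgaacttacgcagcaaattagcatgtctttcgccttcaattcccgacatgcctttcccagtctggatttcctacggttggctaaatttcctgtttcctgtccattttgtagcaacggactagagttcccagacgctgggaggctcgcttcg

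Of the 6 sequences, Mrps22 holds an ETS match, Mrpl20 an E-box, Mrpl36 an E-box and a YY1 match and Mrpl9 an NRF1 core, while Mrps6 and Mrpl24 hold none of the 4. Promoters were found for 67 of the 76 genes, in 73 windows of 300 bases, and 36 of these genes had at least 1 match. No window had motif matches that overlapped each other. An ETS match was present for 35.8% of the 67 genes, against 20.1% of 9489 tested genes with a promoter and 9.93% of all 27025 genes with a promoter. A YY1 match was present for 11.9%, against 3.54% and 1.64%, and an NRF1 core for 10.4%, against 4.41% and 2.07%. The E-box was present for 7.46%, against 11.8% and 8.09%. Counted per window, the shares among members, tested genes and all promoters were 32.9%, 17.2% and 8.86% for ETS, 11.0%, 2.91% and 1.40% for YY1, 9.59%, 3.83% and 1.87% for NRF1 and 9.59%, 9.98% and 7.15% for the E-box. Median GC content was 58.3% in member windows and 60.3% in windows of tested genes.

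Genes with and without a match were both mostly higher after stimulation. In knockout cells the median log2 fold change was 0.94 for the 24 genes with an ETS match and 1.00 for the 43 without, and in wild type 0.93 and 1.01. It was 0.66 for the 7 genes with an NRF1 core and 1.01 for the other 60 in knockout cells, and 0.60 and 0.99 in wild type. For the 8 genes with a YY1 match it was 1.23 against 0.94 in knockout cells and 1.16 against 0.97 in wild type, and for the 5 with an E-box 1.16 against 0.96 and 1.28 against 0.97. These differences are descriptions of small groups and were not tested.

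Mrps6 (chr16:92058270-92112227 on GRCm38, plus strand), a small-subunit protein with a bacterial counterpart, had the largest fold change of the set. It was at 44.2, 45.8 and 50.2 CPM in stimulated knockout and 45.0, 46.0 and 47.2 CPM in stimulated wild-type libraries, against 9.76, 7.60 and 10.2 CPM in fresh knockout and 7.83, 8.38 and 7.79 CPM in fresh wild type. All 6 stimulated libraries lay far above all 6 fresh ones, and the log2 fold change was 2.35 (SE 0.093, edgeR adjusted p = 1.29e-12) in knockout and 2.52 (SE 0.096, edgeR adjusted p = 1.06e-12) in wild-type cells. Of the exon length of Mrps6, 18.8% (159 bases) is shared on the same strand with Slc5a3, a sodium/myo-inositol cotransporter. Slc5a3 was itself higher after stimulation, at 92.3 ± 7.15 CPM in stimulated knockout and 84.2 ± 5.47 CPM in stimulated wild type, against 28.6 ± 1.59 CPM in fresh knockout and 22.2 ± 1.21 CPM in fresh wild type (SD, n = 3). The part of shared reads in either value was not tested.

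Mrpl47, which lies near the exit of the tunnel for the growing protein, was at 35.5, 38.2 and 35.7 CPM in stimulated knockout and 35.2, 31.8 and 34.3 CPM in stimulated wild type, against 8.83, 9.32 and 8.53 CPM in fresh knockout and 10.1, 8.28 and 8.72 CPM in fresh wild type. Its stimulated and fresh libraries did not overlap, and it rose by 2.03 (SE 0.084) in knockout and 1.90 (SE 0.086) in wild type on the log2 scale. Mrpl20, whose bacterial counterpart is needed early in assembly of the large subunit, was at 82.4, 91.7 and 94.5 CPM in stimulated knockout and 92.5, 91.1 and 90.7 CPM in stimulated wild type, against 25.1, 21.0 and 23.4 CPM in fresh knockout and 22.9, 24.0 and 23.6 CPM in fresh wild type. The log2 fold changes of Mrpl20 were 1.95 (SE 0.071) and 1.96 (SE 0.072), again with no overlap. Mrps22, a protein found only in mitochondrial ribosomes, averaged 39.3 ± 2.31 CPM in stimulated knockout and 35.9 ± 1.96 CPM in stimulated wild type, against 10.6 ± 0.779 and 9.76 ± 0.789 CPM in the fresh groups of the same genotypes (SD, n = 3), a log2 fold change of 1.88 in each. The largest edgeR adjusted p among these 3 genes was 9.06e-12 (Mrps22 in wild type). Mrpl13 (1.66 in knockout and 1.57 in wild type) and Mrpl15 (1.66 and 1.53), both large-subunit proteins with a bacterial counterpart, were also among the genes that rose most in knockout cells.

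The proteins of the stalk, which recruits translation factors, differed from each other. Mrpl12, which forms the stalk and is also known to bind the mitochondrial RNA polymerase, was at 156, 148 and 175 CPM in stimulated knockout and 153, 173 and 157 CPM in stimulated wild type, against 46.0, 41.9 and 51.0 CPM in fresh knockout and 44.4, 47.4 and 45.3 CPM in fresh wild type. Its log2 fold change was 1.78 (SE 0.076) in knockout and 1.82 (SE 0.077) in wild type. Mrpl10, which anchors Mrpl12 to the ribosome, averaged 57.8 ± 3.09 CPM in stimulated knockout and 58.5 ± 1.65 CPM in stimulated wild type, against 48.1 ± 1.40 CPM and 48.2 ± 0.738 CPM in the fresh groups (SD, n = 3), and rose by 0.27 (SE 0.056) and 0.28 (SE 0.056). Mrpl11, at the base of the stalk, lay between them at 1.03 (SE 0.070) and 1.00 (SE 0.070). The 95% intervals of the 3 log2 fold changes in knockout cells were 1.62 to 1.95 for Mrpl12, 0.88 to 1.17 for Mrpl11 and 0.15 to 0.38 for Mrpl10, and do not overlap. Mrpl12 also had the highest level per kilobase of exon in both stimulated groups, at 121 ± 10.6 CPM per kilobase in knockout and 122 ± 8.00 in wild type, where in fresh cells it ranked 7 in knockout and 9 in wild type.

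Levels can be compared between genes only per length, as CPM per kilobase of exon. On that scale the median gene was at 31.3 ± 0.884 in stimulated knockout, 31.4 ± 1.30 in stimulated wild type, 16.5 ± 0.925 in fresh knockout and 15.8 ± 0.943 in fresh wild type (SD, n = 3). After Mrpl12, the next levels in stimulated cells were those of Mrpl33 (110 ± 4.58 in knockout and 108 ± 1.08 in wild type) and Mrpl20 (96.7 ± 6.82 and 98.7 ± 1.03). In knockout the gap between Mrpl12 and Mrpl33 was about the SD of Mrpl12, and in wild type it was larger than either SD. In fresh cells Mrpl33 had the highest level (67.6 ± 4.02 in knockout and 70.2 ± 0.632 in wild type), followed by Mrpl30. All levels and ranks per kilobase depend on which transcripts enter the exon length. The GENCODE M21 basic set used here gives 478 bases for Mrpl33 and 973 for Mrpl30. The full set gives 7326 and 3226, which would lower both genes, and the annotation used for counting is not stated. With basic-set lengths Mrps25 was lowest in every group, at 5.44 ± 0.348 in stimulated knockout, 5.35 ± 0.146 in stimulated wild type, 2.01 ± 0.224 in fresh knockout and 2.19 ± 0.108 in fresh wild type. Of its exon length, 58.2% is overlapped on the opposite strand by Nr2c2, and the part of shared reads in this rank was not tested. Mrps6, with the largest fold change, moved to rank 13 in stimulated knockout and 14 in stimulated wild type, against rank 51 in fresh knockout and 55 in fresh wild type.

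Mrpl24 (chr3:87919506-87923672, plus strand), whose bacterial counterpart starts assembly of the large subunit, was the lowest of the set. It was at 45.2, 47.2 and 48.9 CPM in stimulated knockout and 47.7, 55.0 and 49.0 CPM in stimulated wild type, against 51.5, 54.9 and 55.6 CPM in fresh knockout and 54.9, 55.4 and 55.6 CPM in fresh wild type. All 3 stimulated knockout libraries lay below all 3 fresh ones, while 1 stimulated wild-type library fell within the fresh range. Mrpl24 fell in knockout cells (log2 fold change -0.20, SE 0.063, edgeR adjusted p = 0.00871) and was not called in wild type (-0.13, SE 0.063, edgeR adjusted p = 0.0722). Without the first stimulated knockout library the edgeR adjusted p in knockout was 0.052, and without the second stimulated wild-type library the wild-type value was -0.19 with an edgeR adjusted p of 0.0158. The interaction of Mrpl24 was -0.069 (SE 0.089), so a difference between genotypes was not shown. Of its exon length, 38.2% is overlapped on the opposite strand by Rrnad1, which was itself lower after stimulation (log2 fold change -0.47 in knockout and -0.27 in wild type). The strand setting of the counting is not given in the sources used here, and the part of shared reads was not tested.

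Mrpl9 (chr3:94443318-94451130, plus strand), whose bacterial counterpart sits at the foot of the stalk formed by Mrpl1, was at 69.7, 62.1 and 84.4 CPM in stimulated knockout and 73.6, 74.3 and 77.0 CPM in stimulated wild type, against 67.1, 72.5 and 67.3 CPM in fresh knockout and 77.1, 78.2 and 66.8 CPM in fresh wild type. The groups overlapped in both genotypes. The 95% interval of its log2 fold change was -0.12 to 0.26 in knockout and -0.17 to 0.21 in wild type, below the set's median of 0.97 in each. In knockout cells the smallest called increases were those of Mrpl30 (log2 fold change 0.21), Mrpl10, Mrpl4 and Mrps26 (0.27 each), Mrps24 (0.31), Mrps23 (0.38), Mrpl22 (0.40) and Mrps21 (0.46). In wild type they were those of Mrpl30 (0.27), Mrpl10 (0.28), Mrps23 (0.35), Mrps9 and Mrps26 (0.38 each), Mrps24 (0.39), Mrpl4 (0.40) and Mrps35 (0.41). Per kilobase of basic-set exon length, Mrpl30 ranked 2 among the 76 genes in both fresh groups and 7 in both stimulated groups. Its levels were 62.4 ± 4.01 CPM per kilobase in fresh knockout and 61.7 ± 3.94 in fresh wild type. In stimulated knockout and wild type they were 71.8 and 74.5 CPM per kilobase.

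**Figure D2:**
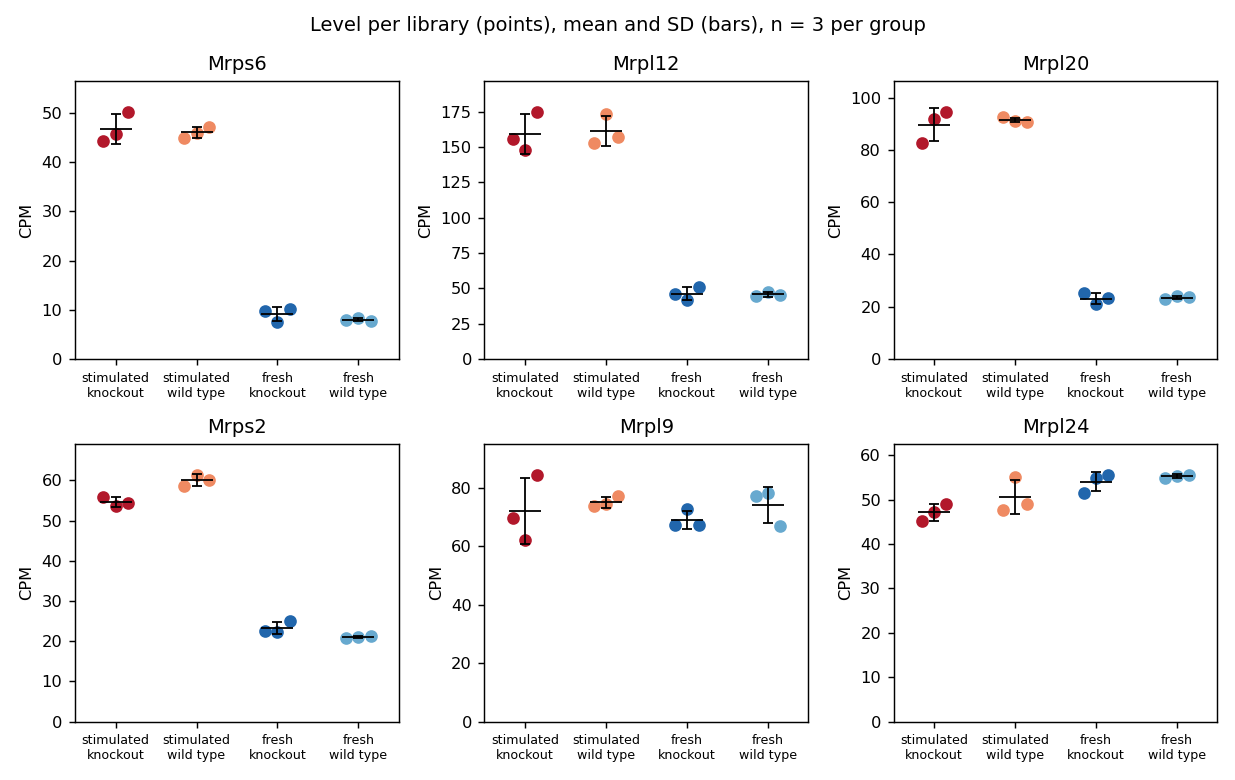
CPM of 6 genes in each library (points), with the mean and SD of each group (bars, n = 3); all axes start at 0. Mrps6, Mrpl12, Mrpl20 and Mrps2 are higher in all 6 stimulated than in all 6 fresh libraries, the groups of Mrpl9 overlap, and the 3 stimulated knockout libraries of Mrpl24 lie below the 3 fresh ones.

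By origin, the 30 large-subunit proteins with a bacterial counterpart had a median log2 fold change of 1.03 in knockout and 0.99 in wild type, with 28 higher in each. All 19 mitochondria-specific proteins of the large subunit rose, with medians of 0.91 and 0.96, among them Mrpl50 (1.75 and 1.71) and Mrpl44 (0.86 and 0.96), which has a fold related to ribonuclease III. All 16 small-subunit proteins with a bacterial counterpart rose, with medians of 0.91 and 0.96, including Mrps12 of the decoding centre (0.93 and 1.00, SE 0.14 each). All 10 mitochondria-specific proteins of the small subunit rose, with medians of 1.15 and 1.09. The fold changes of the 4 classes covered wide and overlapping ranges, and the classes were not tested against each other. Symbols do not always give the place of a protein: Mrps30 (0.71 and 0.60) and Mrps18a (1.17 and 1.12) are known as large-subunit proteins and were counted there, and Mrps36 (1.04 and 1.07), placed in no class, is known as a component of the 2-oxoglutarate dehydrogenase complex. Mrps18b (1.55 and 1.60) and Mrps18c (0.78 and 0.97), paralogs of Mrps18a, belong to the small subunit. In knockout cells the 95% interval of Mrps18b, 1.40 to 1.70, lay above those of Mrps18a, 1.03 to 1.31, and Mrps18c, 0.61 to 0.96.

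At least a 2-fold increase was seen for 37 genes in knockout and 34 in wild type, 33 of them in both, and at least a 3-fold increase for 8 and 7, with 6 in both. In 16 genes in knockout and 14 in wild type the difference was under 1.5-fold. The order of the genes was close to the same in both genotypes, whose stimulation effects share no libraries: across the 76 genes Pearson's r was 0.979 and Spearman's rho 0.976. These genes were measured in the same libraries and are not independent replicates. Of the 10 genes with the largest fold changes 9 were shared, and of the 10 with the smallest 8 were shared. By 1 of 2 measures, the spread of levels among the genes was slightly smaller after stimulation. The SD over the 76 genes of log2 CPM per kilobase was 0.976 in stimulated knockout, 0.983 in stimulated wild type, 1.08 in fresh knockout and 1.08 in fresh wild type. Its ranges of 0.962 to 0.990 over the stimulated and 1.07 to 1.09 over the fresh libraries did not overlap. The ratio of the 90th to the 10th percentile did overlap, at 5.46 to 5.93 over the stimulated and 5.78 to 6.12 over the fresh libraries.

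**Figure D3:**
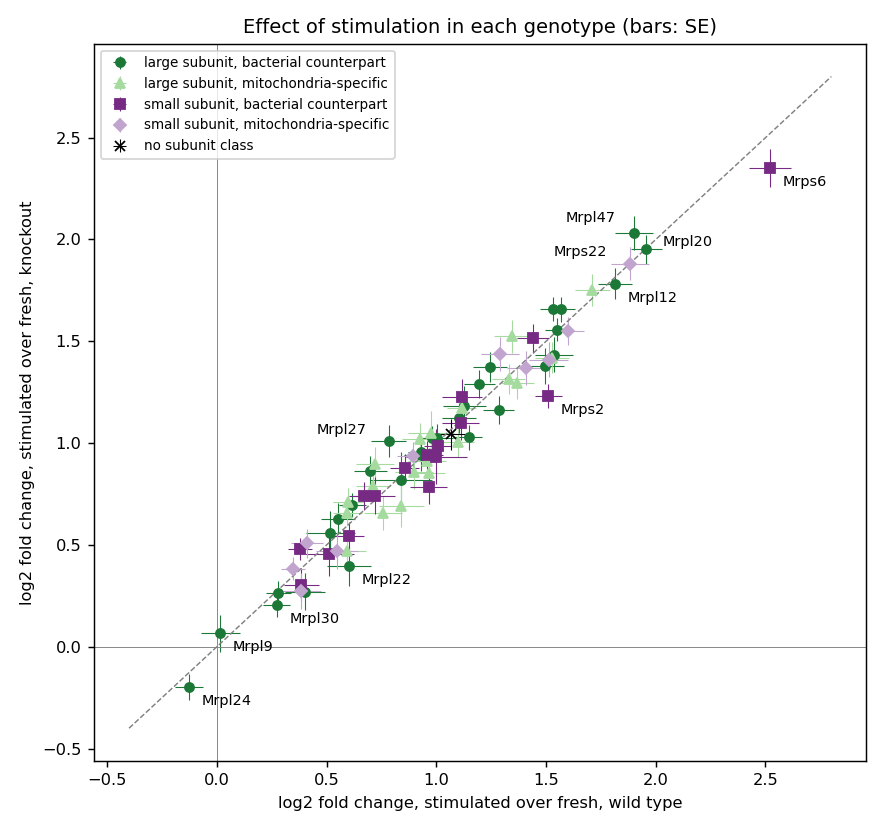
Log2 fold change of stimulated over fresh cells in knockout (vertical axis) against wild type (horizontal axis) for the 76 genes, with bars of 1 SE and the line of equal effects dashed. The points follow the line (r = 0.979), from Mrpl24 at the lower left to Mrps6 at the upper right, and Mrps2 lies farthest below it.

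Knockout and wild-type cells had close levels of these genes in both states. In stimulated cells, knockout against wild type, 0 were called by edgeR, where 9.3% of all genes tested were called in either direction, and the median log2 fold change was 0.021. At an unadjusted p under 0.05 edgeR gave 2 higher and 1 lower, where 1636 of all 12759 genes tested were higher and 1392 lower. DESeq2 called 0, with 2 higher and 1 lower unadjusted, and limma-voom called 1, Mrpl1. Mrpl1, which forms a mobile stalk where spent tRNA leaves the ribosome, was at 41.1, 43.3 and 44.1 CPM in stimulated knockout against 36.8, 39.4 and 35.2 CPM in stimulated wild type. Its groups did not overlap, and the log2 fold change was 0.20 (SE 0.071, edgeR adjusted p = 0.0886; limma-voom adjusted p = 0.0443). The next smallest p-values were those of Mrps2 (-0.14, edgeR adjusted p = 0.158), whose levels are given with the interaction, and of Mrpl34 (0.23, SE 0.11, edgeR adjusted p = 0.200). Mrpl34 had overlapping groups of 27.2, 24.1 and 31.3 CPM in stimulated knockout and 21.2, 25.0 and 24.2 CPM in stimulated wild type. Knockout and wild type did not overlap for 6 genes higher (Mrpl1, Mrpl15, Mrpl27, Mrpl35, Mrpl40 and Mrpl47) and 2 lower (Mrps2 and Mrps17), against 27.4% of all genes tested.

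In fresh cells 0 genes were called by edgeR, where 1.2% of all genes tested were called, and the median log2 fold change was 0.015. At an unadjusted p under 0.05 edgeR gave 3 higher, Mrps18c (0.20, edgeR adjusted p = 0.306), Mrps2 (0.14, edgeR adjusted p = 0.322) and Mrpl51 (0.17, edgeR adjusted p = 0.351), and 1 lower, Mrps28 (-0.21, edgeR adjusted p = 0.341). Of all 12759 genes tested, edgeR gave 965 higher and 838 lower at that threshold. DESeq2 and limma-voom also called 0 members, each with 1 higher and 0 lower unadjusted. Knockout and wild type did not overlap for 4 genes higher and 1 lower, against 20.0% of all genes tested. These counts come with bounds on the size of each difference. For all 76 genes the 95% interval of the knockout effect lay within 0.5 on the log2 scale in either direction, from -0.37 (Mrpl52) to 0.46 (Mrpl34) in stimulated and from -0.41 (Mrps28) to 0.49 (Mrpl14) in fresh cells.

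**Figure D4:**
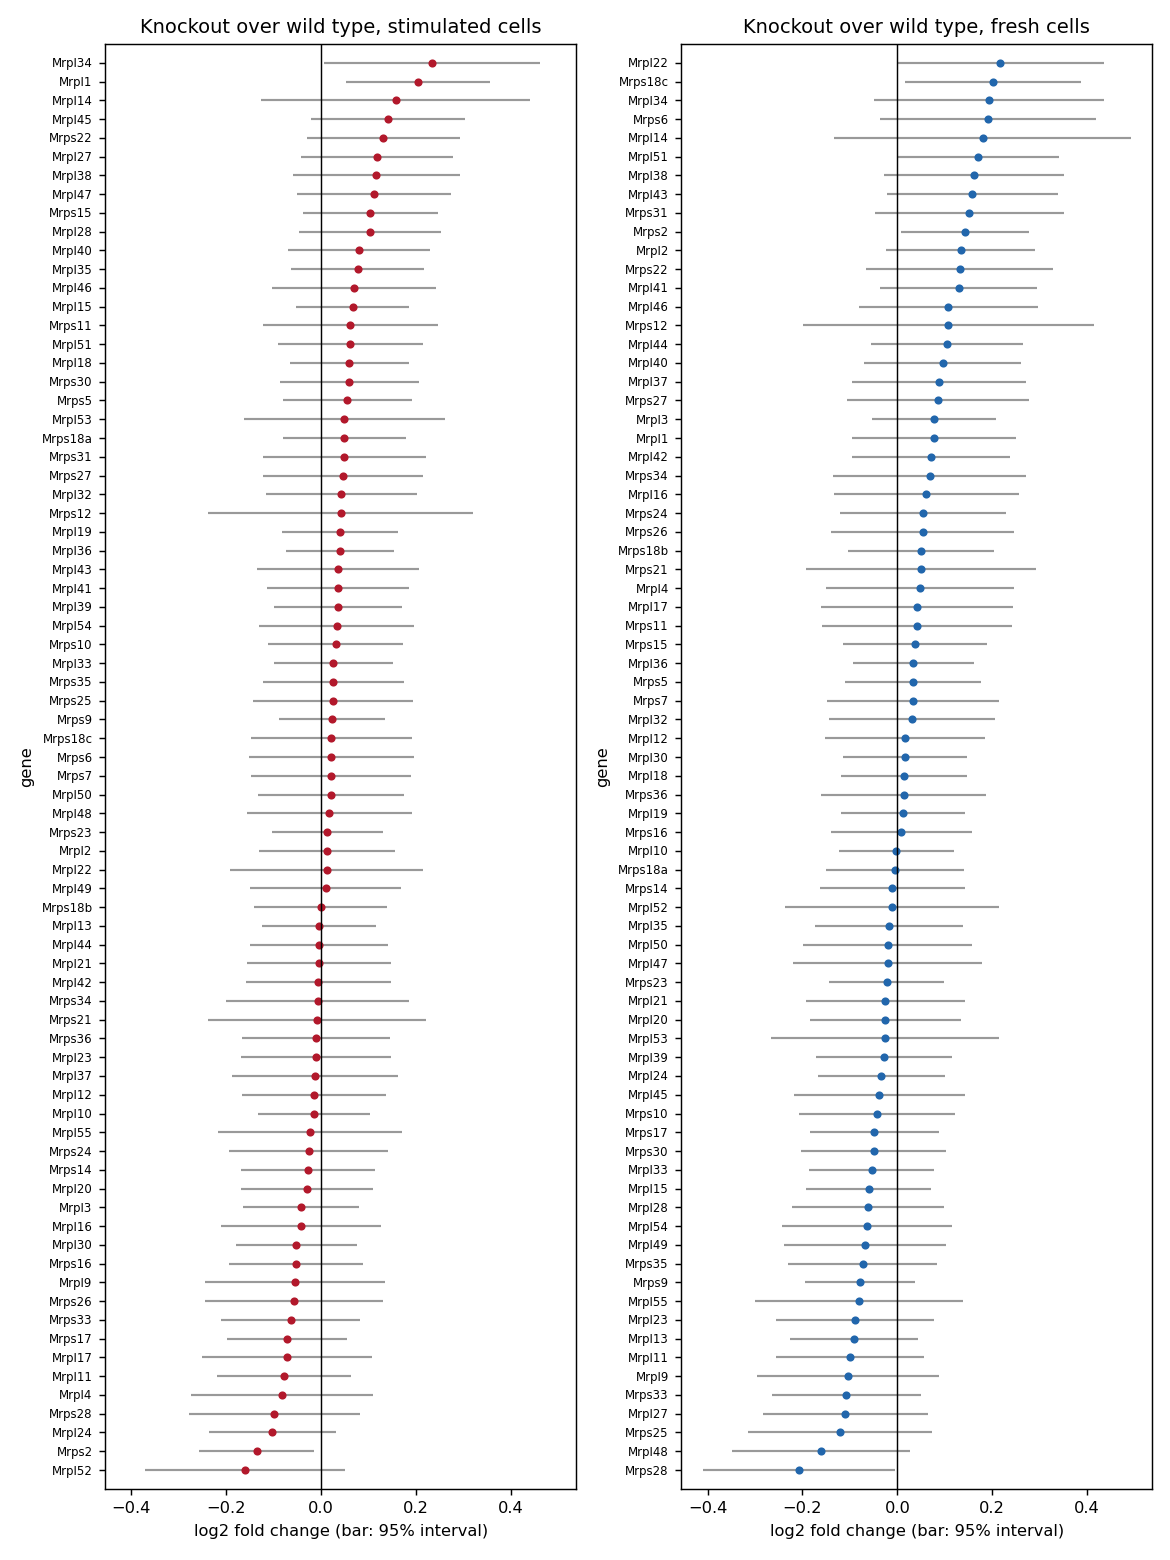
Log2 fold change of knockout over wild type for each of the 76 genes (rows, ordered by effect in each panel), with its 95% interval, in stimulated cells (left) and fresh cells (right). All intervals lie between -0.5 and 0.5 and nearly all cross 0.

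Stimulation effects were also compared between genotypes directly. None of the 76 interactions was called by edgeR, DESeq2 or limma-voom, where edgeR called 2.26% of all genes tested. At an unadjusted p under 0.05 each tool gave 0 higher and 1 lower, Mrps2. Over all 12759 genes tested, edgeR gave 970 higher and 1116 lower at that threshold. Mrps2 (chr2:28468066-28471178, plus strand), a small-subunit protein with a bacterial counterpart, was at 55.9, 53.5 and 54.4 CPM in stimulated knockout against 58.5, 61.4 and 60.2 CPM in stimulated wild type. In fresh cells it was at 22.5, 22.4 and 24.9 CPM in knockout against 20.9, 21.1 and 21.2 CPM in wild type. Knockout thus lay below wild type in stimulated cells and above it in fresh cells, with no overlap in either. The log2 fold change of knockout over wild type was -0.14 (SE 0.057) in stimulated and 0.14 (SE 0.063) in fresh cells, and the interaction was -0.28 (SE 0.085, edgeR adjusted p = 0.107). The next smallest p-values were those of Mrpl27 (0.23, edgeR adjusted p = 0.324) and Mrpl28 (0.16, edgeR adjusted p = 0.458). For 75 of the 76 genes the 95% interval of the interaction lay within 0.5 in either direction, the exception being Mrpl22 with a lower bound of -0.503.

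Other genes of mitochondrial translation mostly moved the same way after stimulation. Of 7 mitoribosome proteins with other symbols, 6 rose and 1 fell in each genotype: Chchd1 rose by 1.44 in knockout and 1.51 in wild type and Ptcd3 by 1.15 and 1.10, while Ict1, a large-subunit peptidyl-tRNA hydrolase now named Mrpl58, fell (-0.22, edgeR adjusted p = 0.00658 in knockout and -0.22, edgeR adjusted p = 0.00756 in wild type). Mrp63, now named Mrpl57, rose by 0.67 and 0.75. Of 10 translation factors, 8 rose and 1 fell in knockout and 7 rose and 1 fell in wild type; the elongation factors Gfm1 (1.43 and 1.48) and Tufm (1.18 and 1.27) rose, and the initiation factor Mtif3 fell (-0.49 and -0.32). Of 26 genes for ribosome assembly and rRNA modification, 20 rose and 1 fell in knockout and 21 rose and 1 fell in wild type. C1qbp, a matrix protein needed for mitochondrial translation, rose by 2.09 and 1.99, and Rnmtl1, an rRNA methyltransferase, by 1.54 and 1.59, while Mettl17, an assembly factor, fell (-0.74 and -0.47).

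Of 6 genes for transcription of mitochondrial DNA and the stability of its RNAs, 5 rose in each genotype. Among them were the elongation factor Tefm (1.61 and 1.65), the RNA-binding proteins Slirp (1.64 and 1.44) and Lrpprc (1.05 and 1.02) and the packaging and transcription factor Tfam (0.81 and 0.84); the polymerase Polrmt was not called (-0.16 and -0.085). None of the genes encoded by mitochondrial DNA that were looked for is listed in the count tables under its mt- symbol, so they were not analysed. Cytosolic ribosomal proteins differed from this pattern: of 78 tested, 13 rose and 49 fell in knockout, with a median of -0.25, and 8 rose and 54 fell in wild type, with a median of -0.30. Many of them have pseudogene copies, among which reads can be split, and the part of such reads in these values was not tested. The list was drawn by symbol and also holds like-named genes such as Rpl22l1, Rpl39l and Rps27l. In the knockout comparisons edgeR called none of the genes on the 4 mitochondrial lists. Of the 78 cytosolic ribosomal proteins, 1 was called higher in stimulated cells and 0 in fresh cells. In fresh cells 44 of them were lower at an unadjusted p under 0.05 with edgeR, against 838 of all 12759 genes tested.

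**Figure D5:**
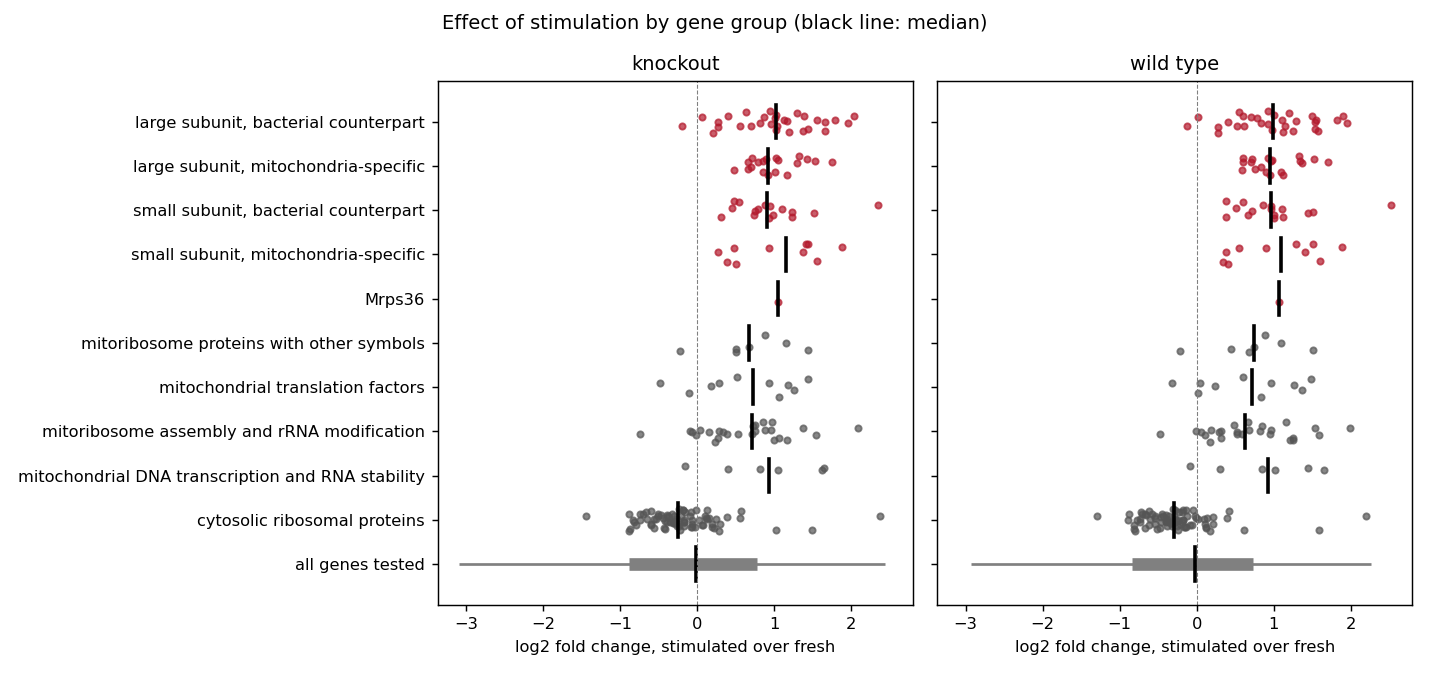
Log2 fold change of stimulated over fresh cells for each gene (points) of the 4 classes of Mrpl and Mrps proteins and Mrps36 (red) and of 5 related lists (grey), with the median as a black line, in knockout (left) and wild type (right). The bottom row shows all 12759 genes tested (thick bar, quartiles; thin line, 5% to 95%). The medians of the mitochondrial groups lie between 0.63 and 1.15, and that of the cytosolic ribosomal proteins is below 0 in both genotypes.

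The 76 genes lie on many chromosomes, and some share a start region with another gene. On GENCODE M21 (GRCm38), 17 of them (22.4%) start head to head with another protein-coding gene within 1000 bases, against 10.5% of 11521 tested coding genes. Of the 16 such neighbours that were tested, 8 rose and 5 fell in knockout and 9 rose and 4 fell in wild type, with medians of 0.27 and 0.31. Helq, a DNA helicase 29 bases from Mrps18c, rose by 1.00 and 0.93, and Ncapd2, a condensin subunit 100 bases from Mrpl51, by 1.38 and 1.16. Mitd1, 66 bases from Mrpl30, fell (-0.97 and -0.76), as did Fau (-0.54 and -0.54), which encodes a cytosolic ribosomal protein 59 bases from Mrpl49. Sars2, the mitochondrial seryl-tRNA synthetase 172 bases from Mrps12, was not called (0.058 and 0.15). Members with such a neighbour had a median of 0.94 in knockout and 0.97 in wild type, against 0.98 and 0.96 for the others. A pair of members, Mrpl46 on the minus and Mrps11 on the plus strand of chromosome 7, share 141 bases of their promoter windows and had log2 fold changes of 0.86 and 0.74 in knockout and 0.90 and 0.72 in wild type.

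Exons of 17 members overlap those of another counted gene, and for 5 the overlap exceeds 20% of the exon length: Mrps25 (58.2%, Nr2c2), Mrpl19 (39.2%, Gcfc2), Mrpl24, Mrpl13 (27.0%, Mtbp) and Mrps27 (22.6%, 6430562O15Rik). Values of these genes are uncertain, since reads there may count for either gene or for neither. The percentages are shares of exon length, and the share of reads affected was not measured. GENCODE M21 also annotates 5 pseudogenes named for members, none of which is listed in the count tables.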

How the data were processed

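For each sample the authors deposited a table of raw gene counts, that is whole reads per gene with no scaling. Read mapping and counting were done with TopHat, TopHat2 and HTSeq on mm10, and DESeq2 was also used, per the submitters' processing notes. Their versions, the annotation and the strand setting are not stated there. Each table also held 5 HTSeq summary lines, 5.22% to 6.43% of its sum, which were left out.

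The 12 libraries entered a single edgeR 4.0.16 fit (R 4.3.3; filterByExpr; TMM scaling, factors 0.988 to 1.01; 4 group means; 8 residual degrees of freedom; two-sided quasi-likelihood tests), and p-values were adjusted over all 12759 genes tested. DESeq2 1.42.0 and limma-voom (limma 3.58.1) were tried as alternatives, as were other scalings and filters, fits of only the groups compared, leaving out the 3 libraries with Y-linked reads (1 each of stimulated knockout, fresh knockout and fresh wild type), and leaving out each library in turn. The edgeR fit was tested on simulated data with 200 changed genes, for stimulated knockout against stimulated wild type only. That test does not cover the stimulation comparisons, where most genes tested were called. CPM are TMM-scaled counts per 1000000, and levels per kilobase use the exon union of the GENCODE M21 basic set. Errors are SD over 3 libraries for levels and SE for log2 fold changes.

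Groups follow the source labels, and replicate numbers only name libraries. Libraries of a group were not duplicates: their counts differed beyond sampling noise in every pair (chi-square over degrees of freedom of 4.26 to 18.6). The labels do not say that replicates are separate animals. Y-linked reads in 1 of the 3 libraries of 3 groups show that each of those groups held mice of both sexes; how many animals stand behind each group is not stated, and p-values measure only the spread between these samples, which may be partly technical.

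The members, gene lists and motifs were chosen with earlier results of these data known, and the cytosolic ribosomal list by symbol after the counts were seen. Named genes were the 8 called members with the highest and the 8 with the lowest fold change and no overlap in each stimulation comparison, the 3 smallest p-values in each other comparison, and members with a role of their own. The other members named with levels, promoters, neighbours or overlapping exons (among them Mrpl36, Mrpl33, Mrps25 and Mrpl51) were chosen after their values were seen.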

Additional observations from a re-analysis of the deposited data

Results flagged for a closer look

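Mrps2 stood out because the difference between knockout and wild type had opposite signs in the 2 states, with every knockout library on the far side of every wild-type library each time. In stimulated cells it was at 55.9, 53.5 and 54.4 CPM in knockout against 58.5, 61.4 and 60.2 CPM in wild type, and in fresh cells at 22.5, 22.4 and 24.9 CPM in knockout against 20.9, 21.1 and 21.2 CPM in wild type. The difference between these knockout effects was -0.28 on the log2 scale (SE 0.085, 95% interval -0.46 to -0.097) and did not pass the test over all genes (edgeR adjusted p = 0.107, and 0.0903 to 0.217 over the alternatives). Mrps2 was chosen for this display among 76 genes after its values were seen.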

How the results depend on the processing

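No paired analysis was possible because the labels carry no replicate number that ties a library of one group to a library of another. With upper-quartile scaling the median log2 fold change of the 76 genes after stimulation was 0.85 in knockout and 0.84 in wild type, but the median of all genes moved as well, and the difference between them was 0.99 in both genotypes, as with TMM. Under that scaling Mrpl9 had values of -0.058 in knockout and -0.11 in wild type, not called, and 1 member, Mrpl24, was called lower in wild type (-0.25, edgeR adjusted p = 0.00172). Mrpl24 was also the 1 member called lower in wild type when genes needed a CPM of at least 1 in 3 samples (-0.15, edgeR adjusted p = 0.0445). With limma-voom 1 member, Mrpl1, was called higher in stimulated knockout over stimulated wild-type cells. Between 71 and 74 members rose in knockout over all alternatives: Mrpl30, Mrps26 and Mrpl4 were not called with upper-quartile scaling, nor when libraries with Y-linked reads were dropped, Mrps26 not without the third stimulated knockout library (edgeR adjusted p = 0.0632), and Mrpl4 not without the first (edgeR adjusted p = 0.0581).

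Leaving out each library in turn gave 73 to 74 members higher and 0 to 1 lower in knockout, with medians of 0.94 to 1.02, and 74 higher and 0 to 1 lower in wild type, with medians of 0.96 to 0.99. The median knockout effect was -0.012 to 0.054 in stimulated and 0.011 to 0.040 in fresh cells, that of the interaction -0.037 to 0.029, and the number of members called in these comparisons was 0 each time. Counts over all genes moved more. In stimulated cells 648 genes were higher and 539 lower in knockout; without the third stimulated wild-type library they were 258 and 256, without the second 373 were higher, and 358 were lower with only the groups compared and 359 when libraries with Y-linked reads were left out. In fresh cells 125 were higher and 28 lower, against 223 and 103 with DESeq2, 202 and 43 with no filter, 49 lower with limma-voom, 53 higher with the Y-linked libraries left out, and 21 to 170 higher and 8 to 76 lower with a library left out. For the interaction 89 were higher and 199 lower, against 192 and 350 with DESeq2, 151 higher with no filter, 55 and 67 with the Y-linked libraries left out, and 32 to 153 and 99 to 252 with a library left out. The cause of these shifts was not tested. With 3 libraries a group the median SE of single knockout effects was 0.072 in stimulated and 0.080 in fresh cells on the log2 scale. The highest bound of any 95% interval, 0.49 (Mrpl14 in fresh cells), is not a limit of detection. Differences that are small beside these SE may not be detectable.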
